A study of Mus musculus with 11 samples.

Results

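The genes of the neprilysin, angiotensin and endothelin system were followed across left ventricles of newborn and adult mice. The set was named by symbol and held 8 genes: the peptidase genes Mme, Ace and Ece1, the precursor genes Agt and Edn1, and the receptor genes Agtr1a, Ednra and Ednrb. Each gene was read from the probe set with 1 gene symbol that had the highest mean over the 11 arrays, with its other probe sets beside it. By this rule 7 of the 8 genes were found among 18194 genes, and Ednra was not analysed here.

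The hearts came from C57BL/6 mice, and the deposited values are log2 levels from Affymetrix arrays, so a step of 1 is a 2-fold change. Transgenic mice carried a mouse Hmgn5 cDNA with a FLAG tag behind a floxed LacZ cassette and the CAG promoter, and a cre driven in heart muscle by the alphaMHC promoter. Control mice were labelled wild-type. Adults gave 3 arrays of each genotype, and newborns 3 transgenic and 2 control arrays, all labelled as biological replicates; no exact ages are given in the labels. HMGN5 is a nucleosome-binding protein that loosens chromatin, and the comparison of transgenic with control hearts asks how its overexpression changes heart gene expression at each age. The wild-type controls are not described as carrying cre, so the transgene and cre cannot be told apart.

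Angiotensinogen, made from Agt, is cut by renin and then by the angiotensin-converting enzyme, made from Ace, to give angiotensin II. This peptide acts on the heart and vessels mainly through the type 1 receptor, whose main rodent form is made from Agtr1a. Endothelin-1, made from Edn1, is released from its precursor by endothelin-converting enzymes such as that made from Ece1 and acts through the A and B receptors, the latter made from Ednrb. Neprilysin, made from Mme, sits in the cell membrane and breaks down natriuretic peptides, bradykinin, angiotensins and endothelin, which is why it is a drug target in heart failure.

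Hmgn5 itself was not higher on transgenic arrays, so it goes no way to check the labels, and every direction below rests on the label transgenic. It read 8.42 ± 0.25 (SD, n = 3) in transgenic and 8.57 ± 0.17 (SD, n = 3) in control adults, and 8.70 ± 0.14 (SD, n = 3) against 8.83 ± 0.03 (SD, n = 2) in newborns. Replicate 3 of both adult groups stood apart by its 18S ribosomal RNA control signal, at 12.18 (transgenic) and 11.89 (control) against 7.64 to 8.58 on the other 4 adult arrays, while newborn arrays read 10.05 to 10.53. The mean of the atrial genes Myl4, Myl7 and Sln also differed between adult arrays. It was 10.53, 6.59 and 6.52 on transgenic replicates 1 to 3 and 10.10, 10.38 and 12.24 on control replicates 1 to 3. The 8 heart muscle markers averaged 13.06 to 13.37 on all 11 arrays. The part of the 18S and atrial signals in the differences below was not tested beyond the settings named.

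In adult hearts labelled transgenic, Mme and Agtr1a were lower and Ace was higher than in controls, while Ece1, Edn1, Agt and Ednrb did not pass the test. A gene passed at a Benjamini-Hochberg adjusted p under 0.05 over all genes in limma, a linear model that shares the spread across genes. Of the 7 genes 1 passed as higher, where 4.16% of all genes did, and 2 passed as lower, where 2.93% of all genes did. The median adult difference of the 7 genes was 0.10, beside 0.00 for all genes. The transgenic and control ranges did not overlap for 4 of the 7 genes (Mme, Ace, Ece1 and Agtr1a), and for 17.9% of all genes.

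**Figure D1:**
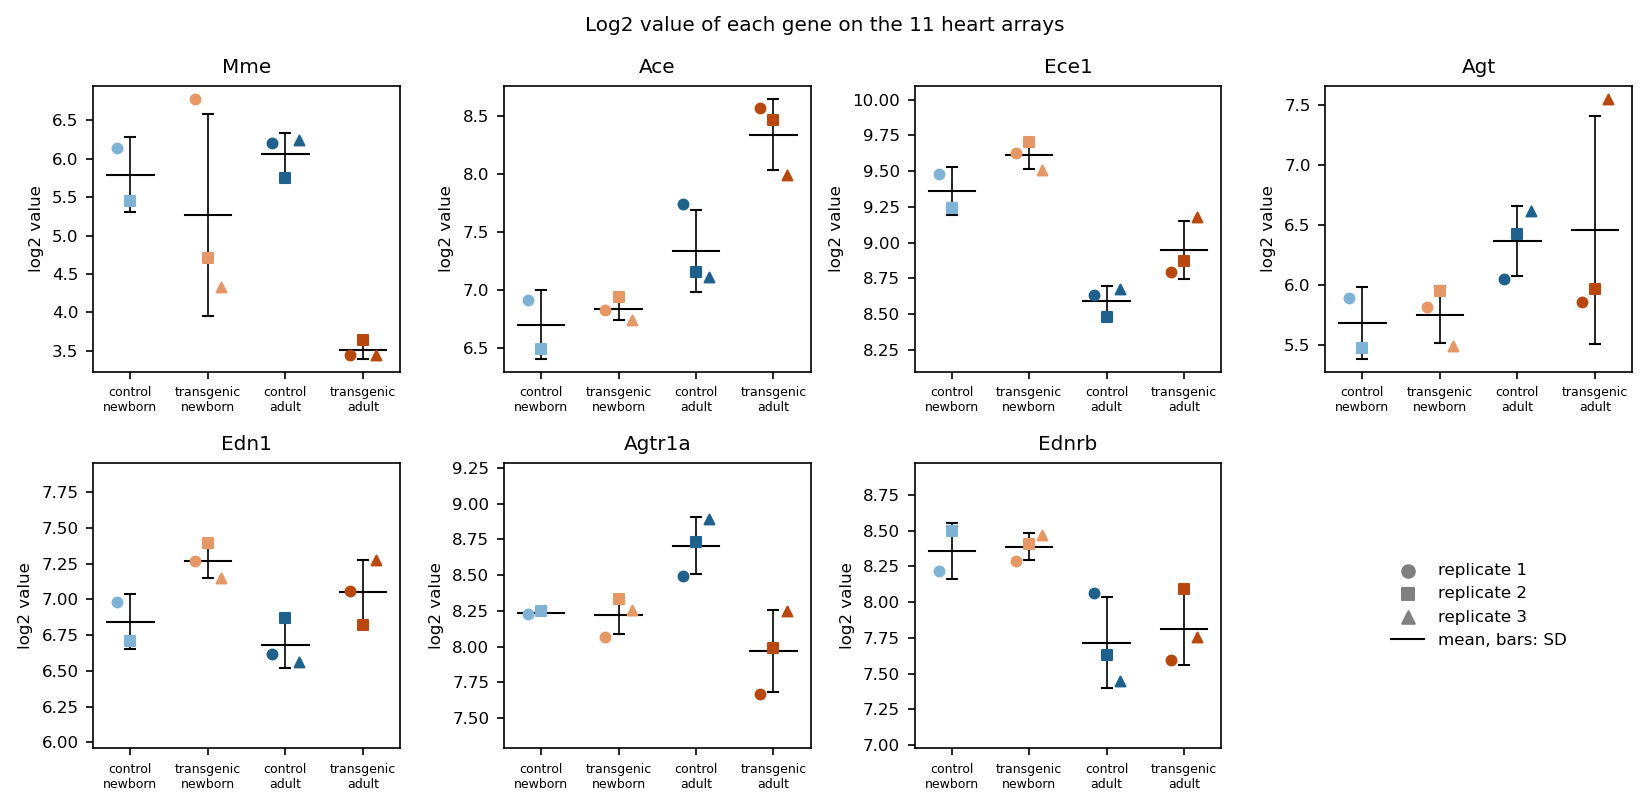
Log2 value (vertical axis) of the 7 genes on each of the 11 arrays, by group; marker shapes give the replicate number, horizontal lines the group mean and bars the SD. Mme sat between 3.44 and 3.64 on the 3 transgenic adult arrays and at 4.33 or above on the other 8, and Ace was highest on the transgenic adult arrays.

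Mme, the neprilysin gene (probe set 1455961_at), showed the widest range of the 7 genes. It read 3.44, 3.64 and 3.45 on the 3 transgenic adult arrays and 6.20, 5.74 and 6.24 on the 3 control adult arrays. All 3 transgenic adult values lay below the other 8 arrays, at percentile 15.8 to 21.2 of all probe sets on their array. The adult means were 3.51 ± 0.11 and 6.06 ± 0.28 (SD, n = 3 each), a difference of -2.55 on the log2 scale (SE 0.50, limma adjusted p = 0.0108). The transgenic adult values lay at the level of the dim second Mme probe set, and were not shown to be above background, so no exact fold is given.

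The level of Mme on newborn arrays was spread out, and a group difference was neither shown nor excluded. It read 6.78, 4.70 and 4.33 in transgenic and 6.14 and 5.45 in control newborns. The groups overlapped through transgenic replicate 1 alone, and over the 23 other settings the newborn difference ran from -1.28 to -0.05. The means were 5.27 ± 1.32 (SD, n = 3) and 5.79 ± 0.49 (SD, n = 2), a difference of -0.52 (SE 0.56) whose 95% interval ran from -1.75 to 0.70. By mean level the groups ran control adult, control newborn, transgenic newborn and transgenic adult, and only the last pair of neighbours had ranges that did not overlap.

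A second Mme probe set, 1422975_at, was dim on every array, from 3.22 to 4.11. Its adult difference was -0.37 (SE 0.14) and did not pass when every probe set was tested (limma adjusted p = 0.238). It lay at percentile 13.7 to 30.8 of its array throughout. In newborns it read 3.22 to 3.37 in transgenic and 3.50 to 3.68 in control hearts, without overlap. The newborn difference of -0.30 (SE 0.16) did not pass. The mean of both probe sets gave an adult difference of -1.46 (limma adjusted p = 0.0113), smaller than that of the main probe set.

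Ace (1427034_at), which makes the enzyme that forms angiotensin II, was higher in transgenic adults. It read 8.56, 8.46 and 7.99 on the transgenic and 7.74, 7.15 and 7.11 on the control adult arrays. The lowest transgenic value was above the highest control value. The means were 8.34 ± 0.31 and 7.33 ± 0.35 (SD, n = 3 each), a log2 difference of 1.00 (SE 0.20, limma adjusted p = 0.0130), or 2.01-fold. Newborn values were lower and closer together, at 6.83, 6.94 and 6.74 (transgenic) and 6.91 and 6.49 (control), with a difference of 0.14 (SE 0.23). Mean levels were highest in transgenic adults, then in control adults, then in newborns, whose genotypes overlapped while the other neighbours did not.

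The second Ace probe set, 1451911_a_at, did not show the adult difference between genotypes. It read 6.57, 6.15 and 6.24 on transgenic and 6.15, 5.94 and 6.33 on control adult arrays, which overlapped, and its difference was 0.18 (SE 0.16, limma adjusted p = 0.707). It did show a higher adult than newborn level, by 1.00 (SE 0.16) in transgenic and 0.56 (SE 0.18) in control hearts, with limma adjusted p = 0.00131 and 0.0416. The probe sets of Ace thus disagreed on genotype. Their mean gave an adult genotype difference of 0.59 (limma adjusted p = 0.0397), smaller than that of the main probe set.

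Ece1 (1455741_a_at), the endothelin-converting enzyme gene, was at 8.79, 8.87 and 9.18 on transgenic and 8.63, 8.48 and 8.67 on control adult arrays. These ranges did not overlap, but the difference of 0.35 (SE 0.13, limma adjusted p = 0.145) did not pass. In newborns it read 9.63, 9.71 and 9.51 against 9.48 and 9.24, again without overlap, with a difference of 0.25 (SE 0.14) that did not pass either. By mean level the groups ran transgenic newborn, control newborn, transgenic adult and control adult, with no overlap between neighbours.

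Of the peptide precursors, Agt (1423396_at) did not separate the genotypes at either age. It read 5.86, 5.97 and 7.55 on transgenic and 6.05, 6.43 and 6.62 on control adult arrays, so transgenic replicate 3 alone lay above all controls. The adult difference of 0.09 (SE 0.38) turned to -0.33 without the pair of arrays of high 18S signal, where Agt read highest in each adult group. In newborns Agt read 5.81, 5.95 and 5.49 (transgenic) and 5.89 and 5.47 (control), a difference of 0.07 (SE 0.42). Both adult groups had higher means than both newborn groups, at 6.46 ± 0.95 and 6.37 ± 0.29 against 5.75 ± 0.24 and 5.68 ± 0.30 (SD; transgenic first).

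Edn1 (1451924_a_at), the endothelin-1 gene, had higher means on transgenic arrays at both ages without passing at either. It read 7.06, 6.82 and 7.27 against 6.62, 6.87 and 6.56 in adults, which overlapped at 1 array of each group. The adult difference was 0.37 (SE 0.14, limma adjusted p = 0.177). On the pair of arrays of high 18S signal, 1 array each, it was 0.71, and on the other adult arrays it was 0.20. Newborn values were 7.27, 7.39 and 7.15 against 6.98 and 6.71, which did not overlap. The newborn difference was 0.43 (SE 0.16) and did not pass (limma adjusted p = 0.999985). Each group's range overlapped that of its neighbour in the order of means, from 7.27 in transgenic newborns through 7.05 in transgenic adults and 6.84 in control newborns to 6.68 in control adults.

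Agtr1a (1436739_at), the main angiotensin II receptor gene, was lower in transgenic adults. It read 7.67, 7.99 and 8.25 on transgenic and 8.49, 8.73 and 8.89 on control adult arrays, without overlap. The means were 7.97 ± 0.29 and 8.71 ± 0.20 (SD, n = 3 each), a log2 difference of -0.74 (SE 0.16, limma adjusted p = 0.0173), or 1.67-fold lower. Newborn values of 8.07, 8.34 and 8.26 (transgenic) and 8.23 and 8.25 (control) overlapped, with a difference of -0.02 (SE 0.18). Control adults were the highest group and transgenic adults the lowest, with newborns of both genotypes between them.

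Ednrb (1437347_at), the endothelin B receptor gene, did not separate the genotypes. It read 7.60, 8.09 and 7.75 against 8.07, 7.63 and 7.45 in adults, a difference of 0.10 (SE 0.18) with a 95% interval from -0.29 to 0.48. Newborn values were 8.29, 8.41 and 8.47 against 8.22 and 8.50, a difference of 0.03 (SE 0.20).

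**Figure D2:**
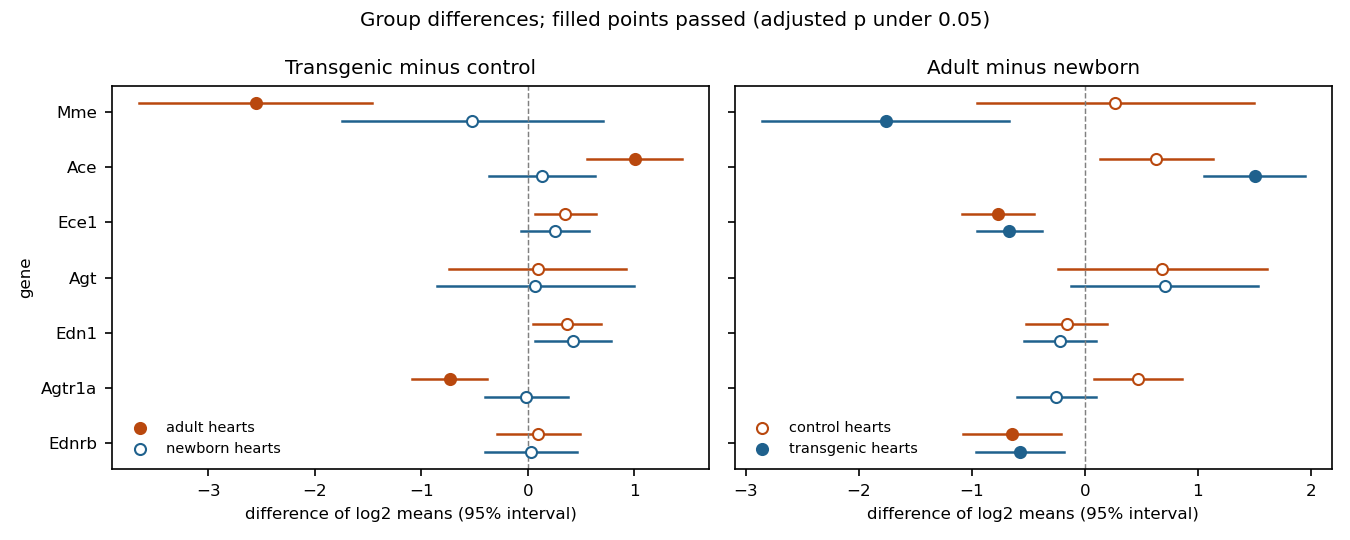
Differences of group means (horizontal axis, log2) with 95% intervals for the 7 genes (vertical axis), by genotype on the left and by age on the right; filled points passed at an adjusted p under 0.05. On the left only the adult points of Mme (-2.55), Ace (1.00) and Agtr1a (-0.74) are filled, and on the right Ece1 and Ednrb are filled in both genotypes.

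No gene of the system passed between newborn transgenic and control hearts. This held for 0 of the 7 genes in each direction, where 0% of all genes passed as higher and 0% as lower with limma. Edn1 was the 1 gene with an unadjusted p under 0.05, beside 198 of all 18194 genes. The newborn ranges did not overlap for Ece1 and Edn1, and for 20.9% of all genes. With 3 arrays against 2, the 95% intervals reached as far as -1.75 for Mme and 0.63 for Ace.

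Whether the transgenic effect differed between ages was tested directly, and 0 of the 7 genes passed with limma. Of all genes 0.445% passed with a higher and 0.242% with a lower adult effect. The difference of effects was -2.03 (SE 0.74, adjusted p = 0.347) for Mme, 0.87 (SE 0.30, adjusted p = 0.308) for Ace and -0.72 (SE 0.24, adjusted p = 0.269) for Agtr1a in limma. These 3 were the genes with an unadjusted p under 0.05. None of them passed after adjustment in the main setting, so the adult differences are not shown to be confined to adults. With array weights, Ace and Agtr1a passed (limma adjusted p = 0.0399 and 0.0300).

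The 3 adult differences kept their direction in each of the 23 other settings run, and their calls did not all hold. Without the adult arrays of high 18S signal the differences were -2.43 for Mme, 1.07 for Ace and -0.78 for Agtr1a, and all 3 passed. On the pair of high 18S arrays alone, 1 array each, the differences were -2.80, 0.88 and -0.64. With the 6 adult arrays alone Mme passed (limma adjusted p = 0.00199), and Ace and Agtr1a did not (0.0831 and 0.115). With the mean of the atrial genes as a covariate the differences were -2.45 for Mme, 1.10 for Ace and -0.92 for Agtr1a, and none of the 3 passed (limma adjusted p = 0.172, 0.124 and 0.0847).

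Single arrays also decided the calls of Ace and Agtr1a. Ace lost its call without transgenic adult replicate 1 or control adult replicate 2 (limma adjusted p = 0.0517 and 0.0595). Agtr1a lost it without transgenic adult replicate 1 or control adult replicate 2 or 3 (limma adjusted p = 0.0542, 0.0631 and 0.0604). Mme passed without each of the 11 arrays in turn. On transgenic adult replicate 1 the atrial mean was 10.53, within the control range, and Mme read 3.44, Ace 8.56 and Agtr1a 7.67. This is 1 array, and the part of the atrial signal in these differences was not tested beyond the covariate.

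**Figure D3:**
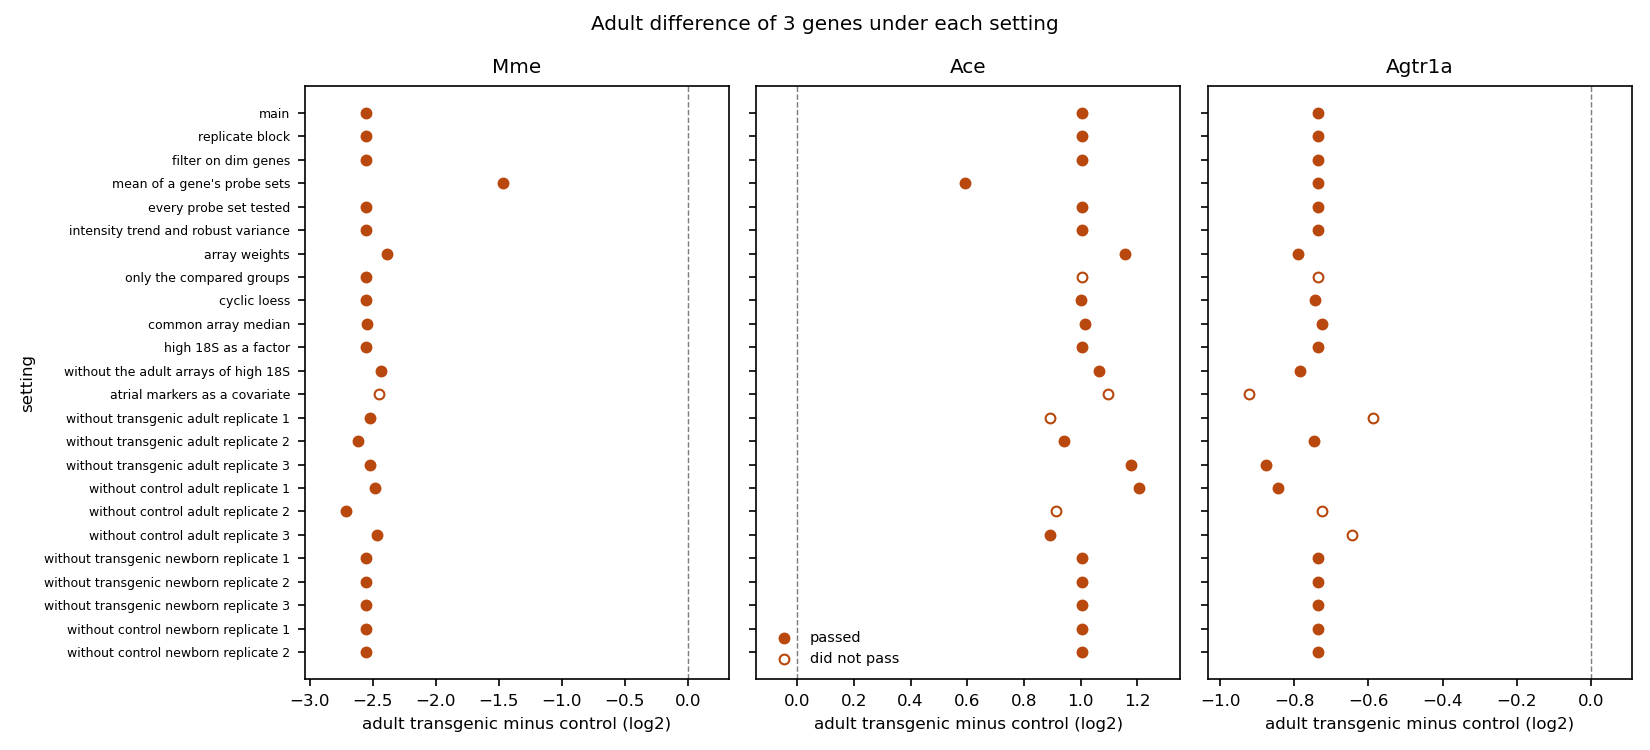
Adult transgenic minus control difference (horizontal axis, log2) of Mme, Ace and Agtr1a under the main setting and 23 others (vertical axis); filled points passed at an adjusted p under 0.05. Mme was open only with the atrial covariate, while Ace and Agtr1a were open in 4 and 5 settings, always on the same side of 0.

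With age, the main probe sets of the endothelin genes Ece1 and Ednrb were lower in adult than in newborn hearts of both genotypes. Of 8 endothelial markers 2 fell and 0 rose with age in controls (median difference -0.42), where 18.1% of all genes passed as lower. In transgenic hearts 4 fell and 0 rose (median -0.62), where 19.7% of all genes passed as lower. Of 8 mural and smooth muscle markers 5 fell in each genotype (medians -0.99 and -0.65), while 1 rose in controls. All 6 epicardial and mesothelial markers fell in each (-2.21 and -2.17), as did 4 of 9 fibroblast markers, where 1 rose. Of 6 mast cell markers 4 fell in controls and 3 in transgenic hearts. All 3 atrial markers passed as lower in transgenic hearts (median -4.88). In controls 0 of the 3 passed, but their median difference was -2.16. The atrial mean was 10.10 to 12.24 on control adult arrays and 12.71 and 12.72 on control newborn arrays. All 8 macrophage markers rose in each genotype (1.61 and 2.09), and of 6 lymphoid markers 5 rose in controls and 4 in transgenic hearts. The 18S signal differed between the ages too, and the part of these cell types and of the 18S signal in the age differences was not tested. In controls 2 of the 7 genes passed as lower and 0 as higher, where 18.1% and 14.9% of all genes did. In transgenic hearts 3 passed as lower (Mme, Ece1 and Ednrb) and 1 as higher (Ace), where 19.7% of all genes passed in either direction. The ranges did not overlap for 5 and 4 of the 7 genes, beside 63.6% of all genes in controls and 54.6% in transgenic hearts.

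Ece1 fell from 9.36 ± 0.17 (SD, n = 2) in newborn to 8.59 ± 0.10 (SD, n = 3) in adult controls, by 0.77 (SE 0.14, limma adjusted p = 0.00237). The transgenic means were 9.61 ± 0.10 in newborns and 8.95 ± 0.20 in adults (SD, n = 3 each), and the level fell by 0.67 (SE 0.13, limma adjusted p = 0.00253). Averaged with its dimmer probe sets, the age difference of Ece1 was -0.04 in controls and -0.02 in transgenic hearts and did not pass. Those dimmer probe sets, 1434177_at and 1441423_at, differed by 0.15 and 0.49 in controls and 0.07 and 0.54 in transgenic hearts, without passing. Ednrb fell from 8.36 ± 0.20 (n = 2) to 7.72 ± 0.32 (n = 3) in controls, by 0.64 (SE 0.20, limma adjusted p = 0.0284). Transgenic means were 8.39 ± 0.09 in newborns and 7.81 ± 0.25 in adults (n = 3 each), and the level fell by 0.57 (SE 0.18, limma adjusted p = 0.0251). Ednrb lost the call in 8 of 23 settings in controls and 4 of 23 in transgenic hearts. Its other probe sets, 1423594_a_at and 1426314_at, differed by -0.94 and -0.03 in controls and -1.10 and -0.37 in transgenic hearts, without passing.

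Ace rose with age in transgenic hearts, from 6.84 ± 0.10 to 8.34 ± 0.31 (SD, n = 3 each), by 1.50 (SE 0.20, limma adjusted p = 2.47e-04). In controls it went from 6.70 ± 0.30 (n = 2) to 7.33 ± 0.35 (n = 3), a difference of 0.63 (SE 0.23, limma adjusted p = 0.0520) that passed in 9 of 23 other settings. Mme was lower in adult than in newborn transgenic hearts by 1.76 (SE 0.50, limma adjusted p = 0.0174), with adult values not shown to be above background. Over the 23 other settings this difference ran from -2.23 to -0.79. The dim second Mme probe set differed the other way, by 0.18 (SE 0.14), and did not pass. In controls the age difference of the main Mme probe set was 0.27 (SE 0.56). Agtr1a differed by 0.47 (SE 0.18, limma adjusted p = 0.0631) in controls and -0.25 (SE 0.16) in transgenic hearts, opposite in sign. The age differences of Agt (0.68 and 0.71) and Edn1 (-0.16 and -0.22) did not pass in either genotype.

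Of the 6 other probe sets, 3 of Ece1 and Ednrb read highest in adults on the arrays of high 18S signal. Probe set 1434177_at of Ece1 read 7.71 and 6.63 on the high 18S arrays (transgenic and control) and 4.86 to 5.43 on the other 4 adult arrays. Probe set 1423594_a_at of Ednrb read 6.92 and 6.38 on the same arrays and 4.33 to 5.36 on the others. The main probe sets showed no such gap: Ece1 read 9.18 and 8.67 against 8.48 to 8.87, and Ednrb 7.75 and 7.45 against 7.60 to 8.09. None of the 6 other probe sets of the 7 genes passed between transgenic and control hearts at either age with limma.

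**Figure D4:**
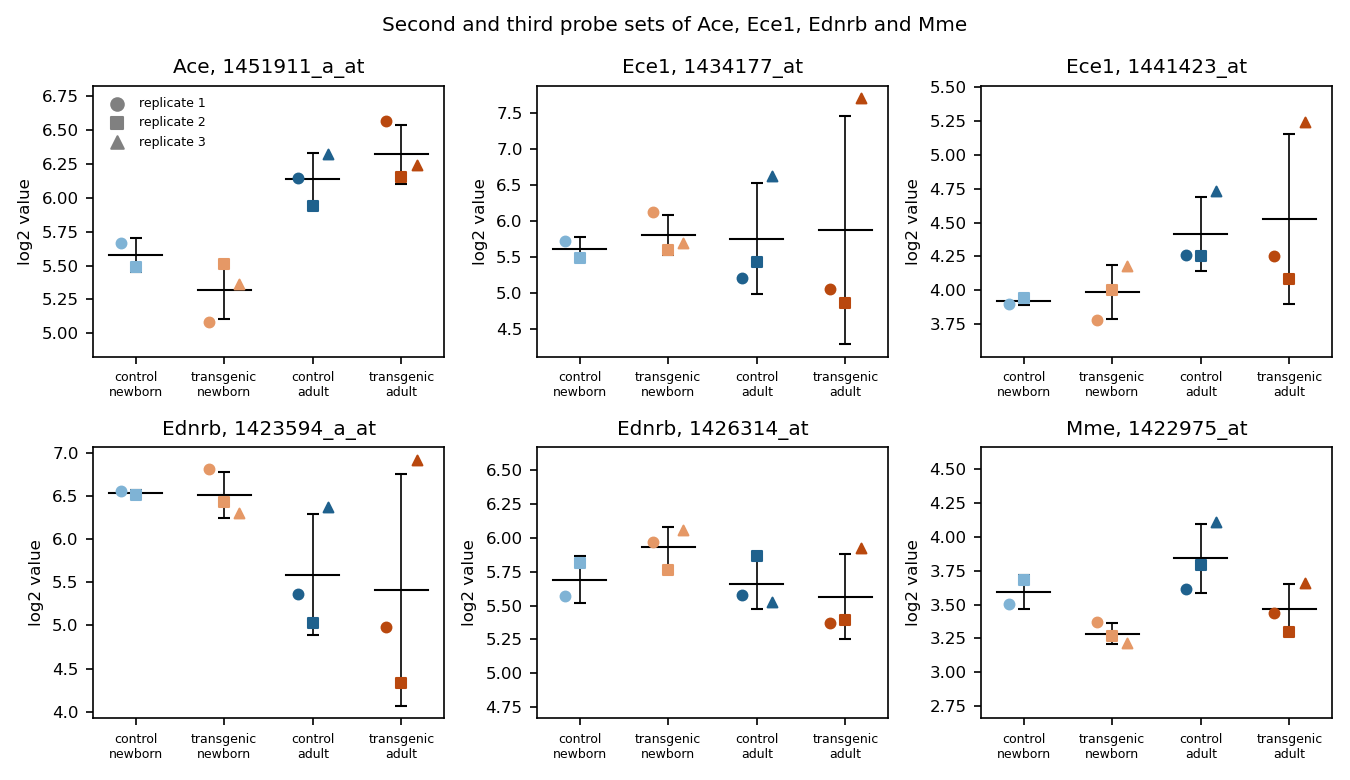
Log2 value (vertical axis) of the 6 other probe sets on each array, by group; marker shapes give the replicate number, lines the group mean and bars the SD. The adult replicate 3 points stand above the other adult arrays in both Ece1 panels and for Ednrb 1423594_a_at, and the Ace probe set overlaps between adult groups.

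Among cell type markers, some macrophage and smooth muscle genes rose in transgenic adults. Beside the counts below, 4.16% of all genes passed as higher and 2.93% as lower in adults. Ventricle RNA is bulk, so fewer cells of a type and less RNA per cell cannot be told apart. Of 8 endothelial markers, the cell type known for Ace and Edn1, 0 rose and 1, Kdr, fell in transgenic adults. Their mean level was 8.27 to 8.53 on transgenic and 8.38 to 8.59 on control adult arrays. Of 8 macrophage markers 4 rose and 0 fell, with means of 8.64 to 9.38 against 8.31 to 8.70, which overlapped. Of 9 fibroblast markers 1 rose and 0 fell, with means of 9.98 to 10.61 against 9.43 to 10.27.

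Of 8 mural and smooth muscle markers 3 rose and 2 fell in transgenic adults, where 4.16% of all genes passed as higher and 2.93% as lower. The contractile genes Acta2 and Cnn1 rose by 1.56 (SE 0.21) and 1.83 (SE 0.19), and the potassium channel genes Abcc9 and Kcnj8 fell by 1.11 (SE 0.16) and 0.64 (SE 0.12), all in limma. The mean of these 8 was 8.73 to 8.90 on transgenic and 8.14 to 8.57 on control adult arrays. Of 6 epicardial and mesothelial markers Wt1 rose, by 0.68 (SE 0.16). None of the heart muscle, atrial, mast cell, lymphoid, fat, lung and erythroid markers measured passed in adults, and none of any list in newborns. The part of any of these cell types in the differences of Mme, Ace and Agtr1a was not tested.

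Other genes of the pathway were read from 4 lists of 71 genes, of which 65 were measured. In adults 5 of the 65 passed as higher and 1 as lower with limma, and 59 did not pass, where 4.16% of all genes passed as higher and 2.93% as lower. In newborns 0 of the 65 passed with limma, and for the difference of effects 1 did, Nppa, with an adult minus newborn difference of effects of 2.12 (SE 0.28, limma adjusted p = 0.00875). It lost the call with the atrial covariate and without control newborn replicate 1 or 2 (limma adjusted p = 0.0562, 0.0912 and 0.0540). Nppa means were 14.10 in transgenic adults and 13.78 and 13.55 in transgenic and control newborns, near the array maxima of 14.21 to 14.37, and whether a ceiling limits its newborn difference was not tested. The adult medians of the 4 lists lay between 0.03 and 0.10, beside 0.00 for all genes.

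Among 17 measured angiotensin pathway genes, which include the receptor gene Agtr2, the renin receptor gene Atp6ap2 and angiotensin-degrading peptidases, 1 fell and 0 rose in adults. That gene was Nr3c2, the receptor for aldosterone, the steroid whose release angiotensin II drives. It read 6.51, 6.73 and 6.11 on transgenic and 7.52, 7.65 and 7.50 on control adult arrays, which did not overlap. The difference was -1.10 (SE 0.15, limma adjusted p = 0.00190). Of 10 endothelin and neprilysin family genes 0 passed in adults with limma, and the 2 with the smallest p were the proprotein convertase gene Pcsk5 at 0.98 (SE 0.30, adjusted p = 0.0745) and Kel at 0.35 (SE 0.13, adjusted p = 0.160).

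Of 16 genes for other neprilysin substrates and their receptors 3 rose in adults, 0 fell and 13 did not pass. The 3 were the natriuretic peptide genes Nppa and Nppb and the receptor gene Npr3. Nppc, the C-type natriuretic peptide gene, read 4.05 ± 0.16 in transgenic and 4.03 ± 0.12 in control adults (SD, n = 3 each) and did not pass. These dim Nppc values were not shown to be above background. The arrays measure transcripts, and peptide levels were not measured. Nppa read 14.18, 14.05 and 14.06 on transgenic and 12.02, 11.21 and 12.01 on control arrays, a difference of 2.35 (SE 0.19, limma adjusted p = 8.41e-05). Nppb read 13.80, 13.69 and 13.41 against 12.62, 11.23 and 10.06, with a wide control spread and a difference of 2.33 (SE 0.51, limma adjusted p = 0.0198). Npr3, the natriuretic peptide clearance receptor gene, read 8.28, 8.29 and 8.44 against 7.16, 7.32 and 7.77, a difference of 0.92 (SE 0.19, limma adjusted p = 0.0143). Nppb lost its call in 5 and Npr3 in 4 of 23 settings.

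Behind the receptors, 2 of 22 measured Gq signalling genes rose in adults and 0 fell. The protein kinase C delta gene Prkcd read 7.34, 7.29 and 7.43 on transgenic and 6.66, 6.33 and 6.63 on control adult arrays, a difference of 0.81 (SE 0.11, limma adjusted p = 0.00180). Grk5, which makes a kinase that quiets G protein-coupled receptors, read 9.25, 9.55 and 9.38 against 8.52, 8.17 and 8.80, a difference of 0.90 (SE 0.16, limma adjusted p = 0.00622). Neither gene overlapped between the adult groups, and Prkcd passed in all 23 other settings while Grk5 passed in 21. The other 20, among them the G protein genes Gnaq and Gna11, did not pass.

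**Figure D5:**
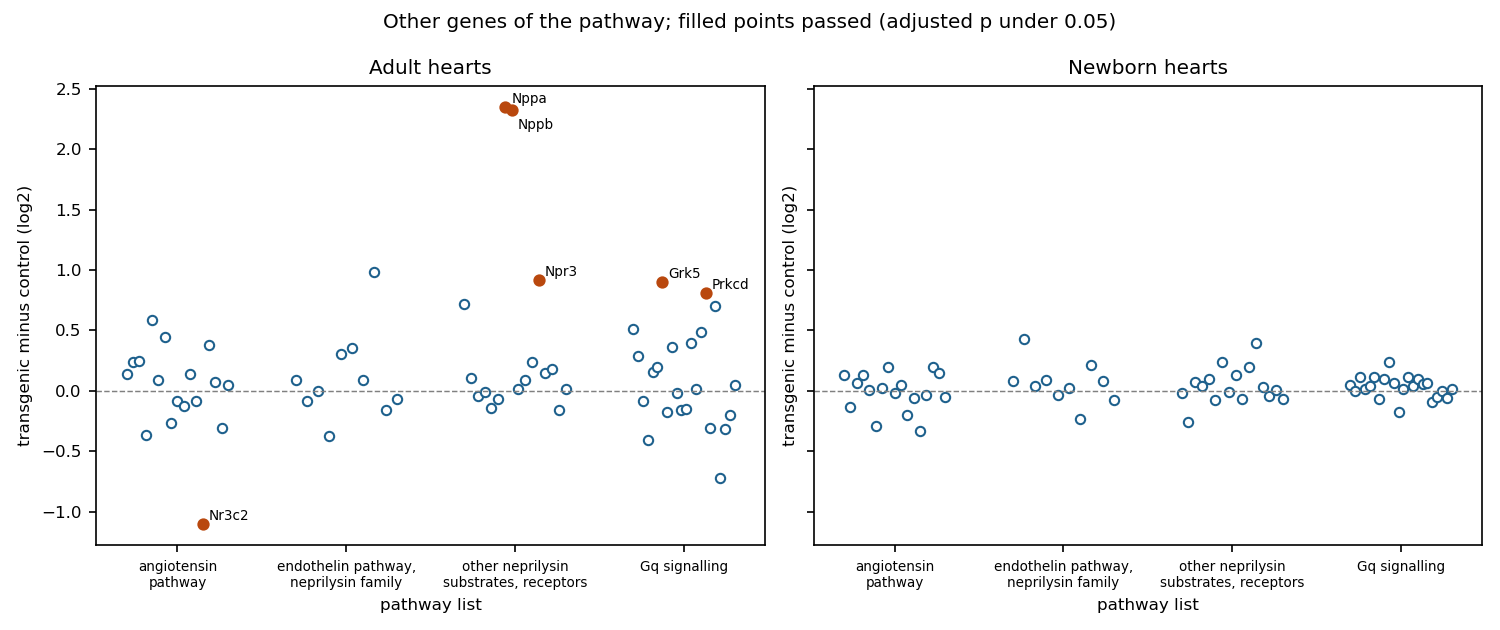
Transgenic minus control difference (vertical axis, log2) of the 65 measured pathway genes in 4 lists (horizontal axis), in adult and newborn hearts; filled points passed at an adjusted p under 0.05 and are named. In adults Nppa, Nppb, Npr3, Grk5 and Prkcd lie above 0 and Nr3c2 below it, and no newborn point is filled.

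Between newborn genotypes, the 2 pathway genes of smallest p in each list had small differences that did not pass. They were Nr3c2 (-0.33, SE 0.17) and Prep (0.20, SE 0.14), Mmel1 (-0.23, SE 0.11) and Ecel1 (0.43, SE 0.22), Bdkrb1 (-0.26, SE 0.11) and Npr3 (0.40, SE 0.21), and Itpr3 (0.24, SE 0.17) and Plcb2 (-0.17, SE 0.17). For the difference of effects between ages, each list without a passing gene is given by its 2 genes of smallest p. In the Gq list these were Prkcd (0.75, SE 0.17) and Grk5 (0.97, SE 0.23). In the angiotensin list they were Nr3c2 (-0.77, SE 0.23) and Ctsd (0.42, SE 0.21). In the endothelin and neprilysin list they were Mmel1 (0.32, SE 0.15) and Ecel1 (-0.51, SE 0.29). By this rule the list that holds Nppa has no other gene named, whatever its p.

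With age, 25 of the 65 pathway genes passed in controls, 10 higher and 15 lower in adults, and 20 in transgenic hearts, 12 higher and 8 lower. Of all genes 14.9% and 18.1% passed as higher and lower in controls and 19.7% each way in transgenic hearts, so these counts are no result about the pathway as a whole. A gene named for 1 genotype was among the called genes of smallest p there, and may also have changed in the other. In the angiotensin list Nr3c2 rose with age by 1.68 (SE 0.17) in controls and 0.91 (SE 0.15) in transgenic hearts, and the cathepsin D gene Ctsd by 0.63 and 1.05. The mast cell chymase gene Cma1, whose product can also form angiotensin II, fell by 1.60 (SE 0.31) and 1.22 (SE 0.28), and the peptidase gene Prep by 0.86 and 0.98. Prcp fell by 0.88 in controls, and its transgenic means of 7.35 in newborns and 6.90 in adults did not pass as different. Nln fell by 0.45 in transgenic hearts, and its control means of 8.01 in newborns and 7.59 in adults did not pass as different.

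In the endothelin and neprilysin list the convertase gene Pcsk6 rose by 1.58 (SE 0.21) in controls and 1.34 (SE 0.19) in transgenic hearts. In controls the endothelin-3 gene Edn3 rose by 0.88, and the convertase genes Pcsk5 and Furin fell by 1.37 and 0.72. In transgenic hearts the neprilysin relative Kel rose by 0.43. Mmel1, another relative, passed too, with a difference of 0.47, but read only 2.95 ± 0.02 in newborns and 3.42 ± 0.11 in adults (SD, n = 3 each), values not shown to be above background. All these genes passed in limma.

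Among the other neprilysin substrates and receptors Npr3 fell with age by 1.45 in controls and 0.93 in transgenic hearts, and Ramp2, a receptor partner for adrenomedullin, by 0.84 and 0.72. Nppa fell by 1.80 (SE 0.21) in controls. The bradykinin receptor gene Bdkrb2 passed there with a difference of 0.48 between dim values (3.57 in newborns and 4.05 in adults). These values were not shown to be above background, and the call was lost in 10 of 22 settings. In transgenic hearts Ramp3 rose by 0.82, and Bdkrb1 passed with a difference of 0.33 between dim values (3.44 in newborns and 3.78 in adults) not shown to be above background. In the Gq list Rgs4 and Rgs5, which restrain Gq signalling, rose by 2.23 and 1.42 in controls and 1.92 and 1.28 in transgenic hearts, and Grk5 by 0.65 and 1.62. The inositol trisphosphate receptor genes Itpr2 and Itpr3 fell by 0.82 and 0.64 in controls and 1.10 and 0.52 in transgenic hearts. Gna11 fell by 0.52 in controls and 0.73 in transgenic hearts and passed in both. Prkcd fell by 0.72 in controls, and its transgenic means were 7.32 in newborns and 7.35 in adults.

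The genes whose profile lay nearest to each of the 3 changed genes were found by the mean absolute difference over the 11 arrays, after each gene was centred on its own mean. For Mme they were Aldh1l2, Gm19277 and Efemp1, at 0.59, 0.59 and 0.60 on the log2 scale. No profile followed Mme closely. For Ace they were the lysosomal protease gene Ctss, Cys1 and 4930523C07Rik, at 0.12, 0.13 and 0.14. For Agtr1a they were Marchf6, the complex I gene Ndufs1 and Mtus2, at 0.09, 0.09 and 0.10. Ctss read 9.80 in transgenic and 8.83 in control adults and 8.36 and 8.38 in newborns, and Ndufs1 read 11.62 and 12.32 in adults and 11.86 and 11.81 in newborns, each as group means.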

How the data were processed

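RNA from mouse left ventricles was measured on Affymetrix arrays after labelling as biotinylated cRNA, per the labels' protocols. The authors deposited log2 values for 45101 probe sets, with array medians of 5.12 to 5.18. The submitters' processing notes name RMA, affy and limma, with settings not given in the sources used here. Equal medians would hide a shift of most transcripts. Of the probe sets 34958 had 1 symbol in the platform annotation, which gave 18194 genes. Group means of the 11 arrays were estimated together in limma (version 3.58.1, R version 4.3.3), with 5 contrasts, 2-sided tests and Benjamini-Hochberg adjustment over all genes. It was tested on simulated data.

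All 4 groups share 1 spread. The median residual SD was 0.21 in adults and 0.11 in newborns, so for the typical gene the shared spread understates the adult and overstates the newborn error. Mme goes the other way, with a newborn transgenic SD of 1.32 and adult SDs of 0.11 and 0.28; its adult limma adjusted p was 2.89e-04 without transgenic newborn replicate 1. Arrays hold no read depth, and their number limits the precision. Members, lists and alternatives were chosen with earlier results of these data known. Named were the 7 measured members, up to 3 called pathway genes per list and direction (where a contrast with the transgene called none, the 2 with the smallest p), and the 3 nearest profiles of each member called between genotypes. Same-numbered arrays were not taken as pairs in the main fit, as the labels name no pairs. The correlations of their deviations from the group means were 0.31, -0.06 and 0.45 in adults and 0.18 and -0.15 in newborns. Between adult arrays of unlike number they ran from -0.42 to 0.31. Newborn values cannot decide, since the deviations of 2 control arrays mirror each other, so pairing was not settled. Alternatives were the replicate block, a filter (above the 40th percentile on at least 2 arrays), other probe set rules, variance models, array weights, normalisations, the 18S arrays, an atrial covariate, the compared groups alone and leaving out each array.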

Additional observations from a re-analysis of the deposited data

How the results depend on the processing

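Adult differences of Mme, Ace and Agtr1a kept their sign in all 23 alternatives and passed in 22, 19 and 18. Members called in adults numbered 3 in the main setting, 1 with the compared groups alone, 0 with the atrial covariate, and 1 to 3 when an array was left out. All genes called in adults numbered 1290, against 373 with the compared groups alone, 2625 with high 18S as a factor, 2183 without those arrays, 238 with the atrial covariate, and 746 (without control adult replicate 2) to 2267 (without transgenic adult replicate 3). For the difference of effects 125 genes became 841 (array weights, with 2 members), 494 (18S factor), 711 (without 18S arrays), 10 (atrial covariate), and 6 to 540 leaving out an array. By age in controls, 6006 genes became 11046 probe sets when every probe set was tested and 2829 to 7430 leaving out an array. Members called there numbered 2, against 1 with averaged probe sets, 5 with array weights and 1 to 5 leaving out an array. By age in transgenic hearts, 7161 genes became 13620 probe sets and, with the atrial covariate, 1828 genes and 2 members. The cause of these changes was not tested. The replicate block gave 1466 genes and 3 members in adults and took no member's call away; with it Ace also passed by age in controls.

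Differences near 0 changed sign without passing. Adult Agt read -0.28 (array weights), -0.33 (without 18S arrays), -0.32 (atrial covariate) and -0.46 to 0.39 leaving out an array. Adult Ednrb read -0.058 (averaged probe sets), -0.0051 (without 18S arrays), -0.24 (atrial covariate) and -0.040 to 0.27. In newborns, Ace read -0.061 (averaged probe sets) and -0.073 to 0.34, Agt -0.11 (replicate block) and -0.14 to 0.28, Agtr1a 0.016 (array weights) and -0.073 to 0.059, and Ednrb -0.11 to 0.17. For the difference of effects, Agt read -0.39 (array weights), -0.40 (without 18S arrays), -0.39 (atrial covariate) and -0.52 to 0.32. Ednrb read -0.14 (averaged probe sets), -0.034 (without 18S arrays), -0.26 (atrial covariate) and -0.070 to 0.24, Ece1 -0.0060 (atrial covariate) and -0.021 to 0.22, and Edn1 -0.19 to 0.078. Mme by age in controls ran from -0.076 to 0.61. Without a control newborn array, the lone array left is assumed to vary like the other groups. The difference of effects has no fit with the compared groups alone, since it uses all 4.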

Other observations

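Mme and Agtr2, the type 2 angiotensin receptor gene, were both highest on replicate 1 of each newborn group. Mme read 6.78 and 6.14 on replicate 1 of the transgenic and control newborns, against 4.33 to 5.45 on the other 3 newborn arrays. Agtr2 read 5.56 and 5.48 on the same arrays, against 3.47 to 3.84 on the others and 2.66 to 3.08 in adults. The epicardial and mesothelial markers averaged 7.84 and 7.20 on these replicate 1 arrays and 7.05 to 7.18 on the other 3. Their part in the newborn spread of Mme was not tested.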
